A study of Homo sapiens with 4 samples.

Results

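Mitochondrial complex I genes were taken as all protein-coding genes of GENCODE (human build hg38) whose symbol starts with NDUFA, NDUFB, NDUFC, NDUFS or NDUFV followed by a digit, without the NDUFAF assembly factors. The rule took 39 of 20007 protein-coding genes. Each gene was read as a domain, its gene body with 10 kb on each side, and every deposited peak that overlapped a domain by at least 1 bp was collected. Of the 39, 10 encode subunits of the NADH-oxidising N module, 6 subunits of the ubiquinone-reducing Q module and 20 subunits of the membrane arm. The remaining 3 carry the name with another role: NDUFA4 is a subunit of complex IV, NDUFA4L2 is its hypoxia-induced paralogue, and NDUFC2-KCTD14 is a readthrough gene that shares its start region with NDUFC2. NDUFAB1, the mitochondrial acyl carrier protein that is also a complex I subunit, was not taken, because its symbol does not meet the rule.

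RD is an established cell line derived from a fusion-negative rhabdomyosarcoma, or FN-RMS, which is a tumour of children with features of skeletal muscle, and the peaks were measured in it by ChIP-seq. Cells labelled SKP2 knockdown (shSKP2) were compared with control cells carrying a scrambled hairpin (shSCR, labelled WT), and chromatin of each was precipitated for MYOD and for H3K27ac. This gave 4 libraries in 4 groups, 1 library per group, so that no test between shSKP2 and shSCR was possible and all differences are descriptions. SKP2 is the substrate receptor of an SCF ubiquitin ligase, and the study asked how its loss affects the myogenic program driven by MYOD. In the methods, the ChIP-seq shSKP2 cells carried 1 hairpin, shSKP2.2, delivered by lentivirus, in high-glucose medium with serum. The labels give no time after infection for these libraries, and the lists hold 1 line and 1 hairpin, so effects of the hairpin and of SKP2 loss cannot be told apart.

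Complex I takes electrons from NADH, passes them along a chain of iron-sulfur clusters to ubiquinone and pumps protons across the inner mitochondrial membrane. Its N and Q modules form the arm that reaches into the matrix. Core subunits carry the cofactors, accessory subunits surround them, and the core subunits of the membrane arm are encoded by mitochondrial DNA, so the nuclear genes of that arm encode accessory subunits. Nuclear genes for respiratory chain subunits are active in most cell types from CpG-rich promoters, where NRF1, GABP (an ETS factor), YY1 and SP1 are known regulators, and mitochondria multiply as muscle cells differentiate. H3K27ac is an acetylated histone mark of active promoters and enhancers. MYOD is a myogenic transcription factor that binds E-boxes, of the letters CANNTG.

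The shSKP2 lists were longer than the shSCR lists for both antibodies. H3K27ac had 38457 peaks over 23.7 Mb in shSKP2 cells, against 25356 peaks over 11.6 Mb in shSCR cells, with median widths of 487 and 363 bp. MYOD had 8457 peaks in shSKP2 cells and 5814 in shSCR cells. Read totals are not in the lists, and the lowest local background of a list was used as a proxy of depth. It was 1.61 fragments in the shSKP2 and 1.75 in the shSCR H3K27ac library, a ratio of 0.92, and 1.94 in the shSKP2 and 1.48 in the shSCR MYOD library, a ratio of 1.31. These are minima of whole lists. The local background under the strongest promoter H3K27ac peak was higher in shSKP2 cells at 33 of the 34 complex I genes with such a peak in both lists, all but NDUFA8, with medians of 5.54 fragments in shSKP2 cells and 4.23 in shSCR cells. Over all genes with such a peak in both lists it was higher in shSKP2 cells at 89.9%. The part of depth, background and peak calling in the differences below was not tested. The muscle lineage genes MYOD1 and MYOG had an H3K27ac promoter peak in both lists, and the SKP2 knockdown itself cannot be read from ChIP peaks.

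Promoter sequences of complex I genes are shown first, for the genes on which the H3K27ac comparison turns. RefSeq (build GRCh38.p14) held promoters of 250 bases before to 50 bases after the start for 32 of the 39 genes. NDUFA4, NDUFA4L2, NDUFB5, NDUFB9, NDUFC2 and NDUFS5 were among those with no entry. Capitals mark letters of 3 motifs on either strand: NRF1 (searched as GCGCANGCG), ETS (CCGGAAG) and YY1 (AANATGGC). NDUFA2, NDUFA3 and NDUFV3 are shown because only the shSKP2 list held an H3K27ac peak at their promoters.
NDUFA2, chr5:140647581-140647880, minus strand: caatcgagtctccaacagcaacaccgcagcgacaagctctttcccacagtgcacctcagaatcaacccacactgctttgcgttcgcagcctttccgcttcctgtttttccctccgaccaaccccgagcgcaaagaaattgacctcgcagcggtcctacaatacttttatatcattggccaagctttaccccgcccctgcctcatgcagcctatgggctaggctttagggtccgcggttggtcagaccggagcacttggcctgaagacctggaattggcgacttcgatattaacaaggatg
NDUFA3, chr19:54102605-54102904, plus strand: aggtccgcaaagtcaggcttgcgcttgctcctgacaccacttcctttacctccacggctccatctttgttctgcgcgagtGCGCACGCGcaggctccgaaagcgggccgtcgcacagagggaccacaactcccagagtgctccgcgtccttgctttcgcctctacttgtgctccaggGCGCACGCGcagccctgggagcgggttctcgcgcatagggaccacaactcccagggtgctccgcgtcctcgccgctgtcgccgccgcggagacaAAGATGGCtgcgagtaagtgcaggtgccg
NDUFV3, chr21:42893059-42893358, plus strand: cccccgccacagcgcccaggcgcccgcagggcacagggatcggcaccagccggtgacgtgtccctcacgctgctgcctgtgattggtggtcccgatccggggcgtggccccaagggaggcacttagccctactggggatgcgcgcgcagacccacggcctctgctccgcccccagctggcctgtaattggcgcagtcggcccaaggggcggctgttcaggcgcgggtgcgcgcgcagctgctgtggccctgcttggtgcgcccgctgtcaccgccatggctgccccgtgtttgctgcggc
NDUFA3 held the NRF1 letters 2 times and the YY1 letters 1 time, while NDUFA2 and NDUFV3 held none of the 3 motifs. NDUFV1 and NDUFB10 are shown because neither list held a peak at their promoters.
NDUFV1, chr11:67606686-67606985, plus strand: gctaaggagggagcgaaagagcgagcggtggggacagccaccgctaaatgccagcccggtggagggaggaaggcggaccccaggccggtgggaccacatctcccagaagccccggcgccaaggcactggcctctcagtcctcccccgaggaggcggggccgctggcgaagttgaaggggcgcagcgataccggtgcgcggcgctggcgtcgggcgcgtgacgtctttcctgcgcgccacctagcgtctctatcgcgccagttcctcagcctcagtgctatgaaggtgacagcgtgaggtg
NDUFB10, chr16:1959288-1959587, plus strand: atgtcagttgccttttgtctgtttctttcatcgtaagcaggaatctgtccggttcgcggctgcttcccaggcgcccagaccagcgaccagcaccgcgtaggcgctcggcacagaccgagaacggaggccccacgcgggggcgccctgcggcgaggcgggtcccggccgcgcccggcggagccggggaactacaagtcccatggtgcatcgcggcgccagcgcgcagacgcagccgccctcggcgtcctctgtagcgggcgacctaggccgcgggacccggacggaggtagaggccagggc
Neither held any of the 3 motifs. NDUFA6, NDUFB4 and NDUFS4 are shown because their promoter folds were the highest of the shSKP2 list after NDUFA4.
NDUFA6, chr22:42090723-42091022, minus strand: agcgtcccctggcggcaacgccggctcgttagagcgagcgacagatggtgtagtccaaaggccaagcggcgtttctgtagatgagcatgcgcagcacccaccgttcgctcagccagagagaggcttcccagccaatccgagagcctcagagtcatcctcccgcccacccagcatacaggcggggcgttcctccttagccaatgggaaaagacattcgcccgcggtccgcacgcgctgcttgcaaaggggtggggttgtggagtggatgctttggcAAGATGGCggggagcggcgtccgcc
NDUFB4, chr3:120596086-120596385, plus strand: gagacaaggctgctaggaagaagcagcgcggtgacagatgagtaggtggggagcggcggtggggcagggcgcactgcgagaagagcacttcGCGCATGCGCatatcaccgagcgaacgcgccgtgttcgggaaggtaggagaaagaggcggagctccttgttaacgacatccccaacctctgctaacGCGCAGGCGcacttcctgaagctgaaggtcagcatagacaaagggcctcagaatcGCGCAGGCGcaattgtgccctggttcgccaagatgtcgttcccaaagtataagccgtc
NDUFS4, chr5:53560389-53560688, plus strand: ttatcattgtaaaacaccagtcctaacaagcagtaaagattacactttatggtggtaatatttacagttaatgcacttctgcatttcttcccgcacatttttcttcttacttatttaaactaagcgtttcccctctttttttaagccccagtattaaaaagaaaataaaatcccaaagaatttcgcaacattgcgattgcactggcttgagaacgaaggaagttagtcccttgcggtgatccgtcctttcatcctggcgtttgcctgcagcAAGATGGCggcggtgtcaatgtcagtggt
NDUFB4 held the NRF1 letters in 3 stretches, 1 of which matched on both strands, and NDUFA6 and NDUFS4 each held the YY1 letters 1 time.

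YY1 letters were the motif whose share differed most between complex I promoters and other promoters. In windows of 300 bases around the GENCODE start, 16 of 39 complex I promoters held them (41.0%, Wilson 95% interval 27.1 to 56.6%), against 8.12% of all 20007 promoters and 13.7% of the 8307 promoters with an H3K27ac peak in shSCR cells. In 10 of the 16 genes, the ATG inside the letters was the start codon of the canonical transcript, among them NDUFA3, NDUFA6, NDUFA7, NDUFA9, NDUFB8, NDUFS3, NDUFS4, NDUFS6 and NDUFS7. Such an overlap was found in 25.6% of complex I genes, 2.45% of all genes and 4.57% of genes with shSCR promoter H3K27ac. The median start codon lay 37 bases after the transcription start in complex I genes and 217 bases after it in all genes, so that more start codons of complex I genes fell inside the window. NRF1 letters were in 9 complex I promoters (23.1%, 12.6 to 38.3%), against 10.9% of all promoters and 17.5% of those with shSCR H3K27ac. ETS letters were in 8 (20.5%, 10.8 to 35.5%), against 14.1% and 23.5%, and SP letters (GGGCGG) in 27 (69.2%, 53.6 to 81.4%), against 61.3% and 73.6%. For NRF1, ETS and SP the interval of complex I promoters held the share of promoters with shSCR H3K27ac. CCAAT boxes (CCAAT) were in 9 complex I promoters (23.1%, 12.6 to 38.3%), against 36.1% and 38.0%, and E-boxes in 24 (61.5%, 45.9 to 75.1%), against 63.8% and 57.5%. The YY1, NRF1, ETS and SP letters do not contain one another. The median CpG observed over expected ratio was 0.856 at complex I promoters, 0.775 at all promoters and 0.872 at those with shSCR H3K27ac. Matches to letters are descriptions and show no binding.

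**Figure D1:**
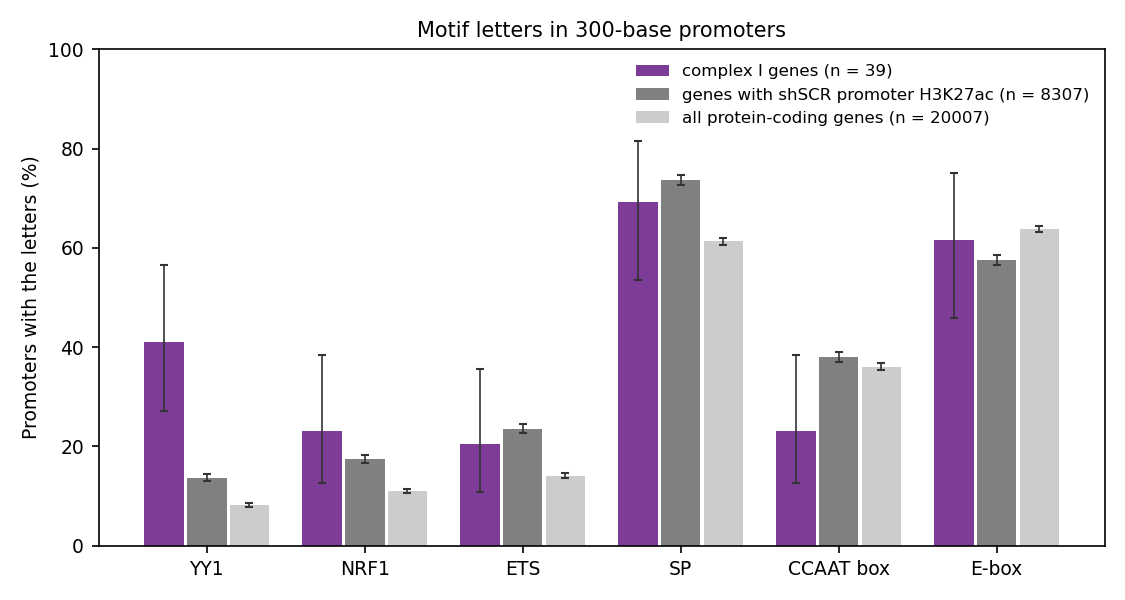
Share of promoters (%) that hold the letters of each motif on either strand, in windows from 250 bases before to 50 after the start site. Purple bars are the 39 complex I genes, dark grey the 8307 genes with an H3K27ac promoter peak in shSCR cells and light grey all 20007 protein-coding genes, with Wilson 95% intervals, and the YY1 bar of complex I genes (41.0%) stands above both others (13.7% and 8.12%).

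Many complex I genes share their promoter region with another gene. A protein-coding start on the other strand within 1 kb upstream, a head-to-head pair, was found for 13 of the 39 genes (33.3%, Wilson 95% interval 20.6 to 49.0%), against 9.46% of all genes and 18.3% of genes with shSCR promoter H3K27ac. The closest pairs were NDUFB9 with TATDN1 at 38 bp, NDUFA9 with AKAP3 at 63 bp, NDUFA1 with RNF113A at 99 bp and NDUFS3 with KBTBD4 at 104 bp. NDUFA7 stood 121 bp from RPS28, a ribosomal protein gene, and NDUFB5 156 bp from MRPL47, which encodes a mitochondrial ribosomal protein. NDUFA8 with MORN5, NDUFA2 with IK, NDUFB1 with CPSF2, NDUFB3 with HYCC2, NDUFS1 with EEF1B2, NDUFB11 with RBM10 and NDUFA13 with TSSK6 completed the pairs, at 129 to 677 bp. At such promoters a peak cannot be assigned to a single gene. Of the 46 shSKP2 H3K27ac peaks at complex I promoters, 23 also lay within 2 kb of the start of a gene outside the set, as did 21 of the 41 shSCR peaks. The same shares over all promoter H3K27ac peaks were not counted.

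H3K27ac cover, the length of a domain that lay under peaks, was larger in shSKP2 cells at nearly every complex I gene. It was larger at 37 of the 39 genes, smaller at NDUFB11 and 0 in both lists at NDUFV1. Among all 20007 genes, 66.8% had more cover in shSKP2 cells and 3.92% had less. The median domain held 1.48 kb in shSKP2 cells and 0.812 kb in shSCR cells, and the median difference was 0.591 kb, against 0.4 kb over all genes. Of the 34 complex I genes with an H3K27ac promoter peak in shSCR cells, 33 had more cover in shSKP2 cells, with a median difference of 0.566 kb, while 94.1% of all genes with such a peak did, with a median difference of 0.723 kb. These differences were taken over domains of unlike length, with a median of 34.5 kb for the 34 complex I genes and 51.7 kb for all genes with such a peak. Domains above 2 kb numbered 11 in shSKP2 cells and 1 in shSCR cells. The share of all gene domains above 2 kb was not counted, and the whole H3K27ac list covered 2.05 times as much in shSKP2 cells.

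**Figure D2:**
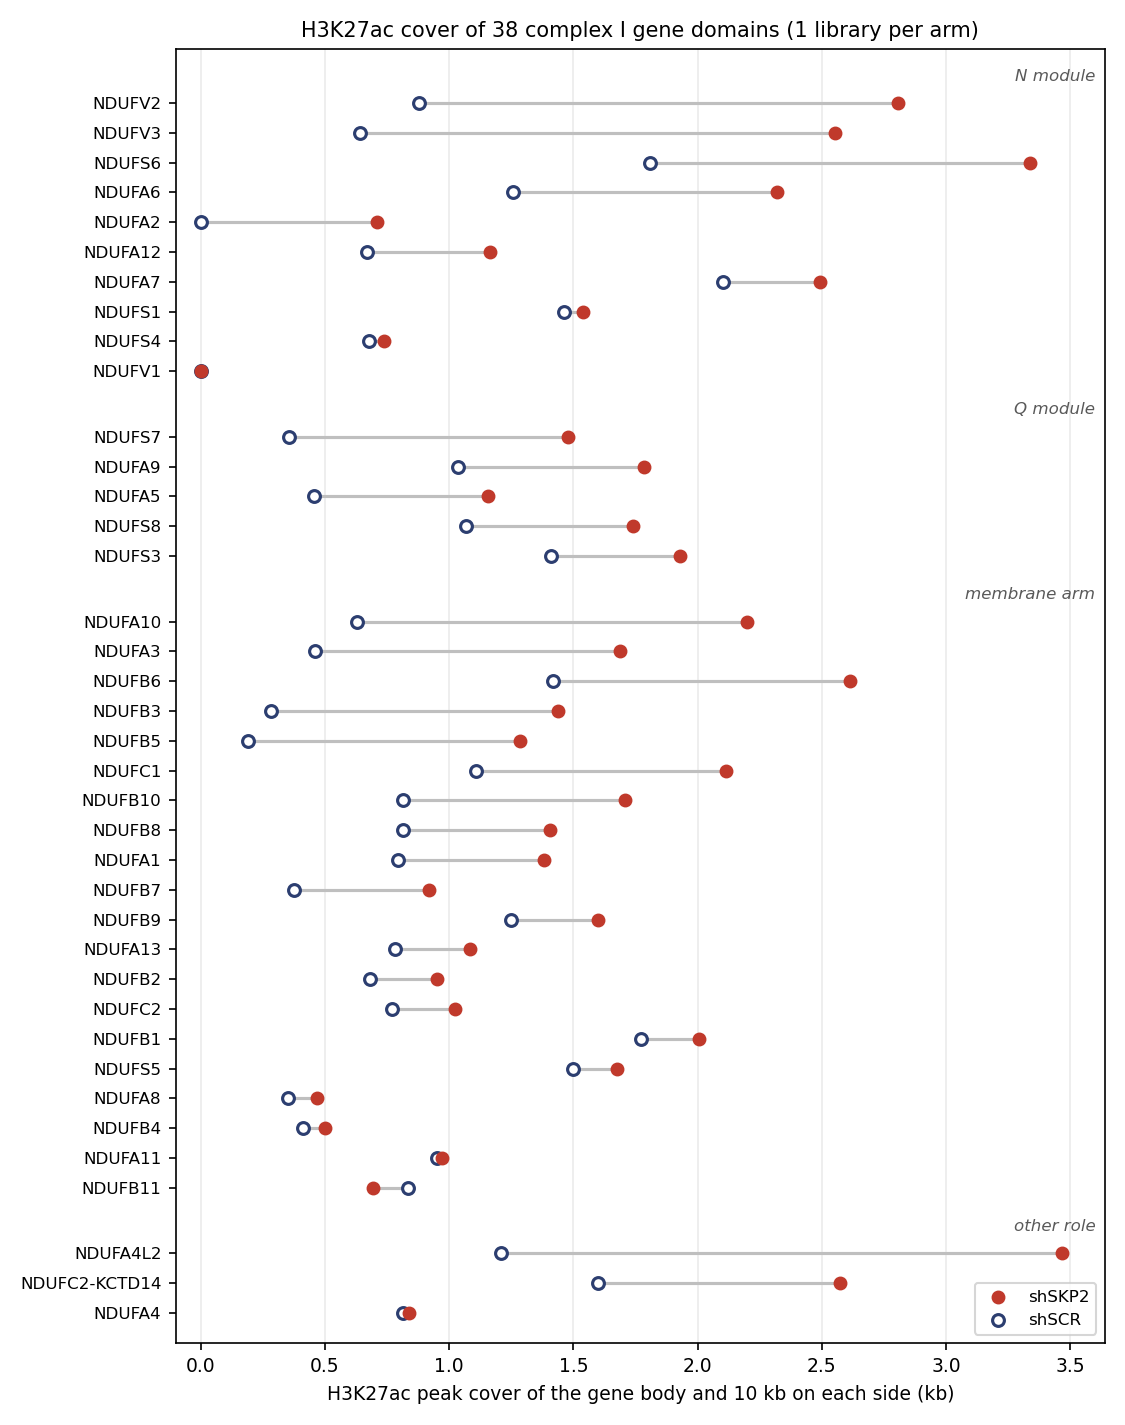
H3K27ac peak cover (kb) of 38 complex I gene domains, the gene body with 10 kb on each side, by module and in the order of the difference. Filled red points are the shSKP2 library and open blue points the shSCR library, 1 library each, and the red point lies to the right at 36 of the 38 genes, to the left at NDUFB11, and on the blue one at NDUFV1.

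The modules did not stand apart by direction. Cover was larger in shSKP2 cells at 9 of 10 N module genes, 6 of 6 Q module genes and 19 of 20 membrane arm genes, with median differences of 0.604, 0.686 and 0.446 kb. Core subunit genes (6 of 7, median difference 0.591 kb) and accessory subunit genes (28 of 29, 0.589 kb) had nearly equal medians. NDUFA4, NDUFA4L2 and NDUFC2-KCTD14 all had more cover in shSKP2 cells.

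Within the N module, the largest differences were at NDUFV2, NDUFV3 and NDUFS6. NDUFV2 encodes a core subunit with an iron-sulfur cluster, and its domain held 2.81 kb in shSKP2 cells, against 0.879 kb in shSCR cells. A promoter peak of both lists was joined in shSKP2 cells by a peak 305 bp upstream of the start (chr18:9101970-9102486, fold 3.56) and by 2 peaks near ANKRD12 downstream, and the fold at the shared promoter peak was 7.13 in shSKP2 cells and 7.89 in shSCR cells. With only peaks of -log10 p of at least 10, the difference at NDUFV2 was 0.289 kb instead of 1.93 kb. NDUFV3, an accessory subunit gene, had 2.56 kb in shSKP2 cells and 0.64 kb in shSCR cells. The shSCR cover lay at the WDR4 start at the far end of the domain, and 2 peaks at the NDUFV3 start were in the shSKP2 list only, at chr21:42892353-42893111 (fold 5.16) and in intron 1 at chr21:42893324-42893950 (fold 5.82). NDUFS6, which encodes a zinc-binding accessory subunit, had 3.34 kb in shSKP2 cells and 1.81 kb in shSCR cells. No single-list peak was involved there: 2 narrow shSCR peaks upstream of the start were matched by 1 shSKP2 peak of 1506 bp (chr5:1799325-1800830), beside MRPL36.

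The remaining N module genes had smaller differences. NDUFA6, a LYR-family accessory subunit gene, had 2.32 kb in shSKP2 cells and 1.26 kb in shSCR cells, and NDUFA12 had 1.17 and 0.667 kb. NDUFA2 had 0.709 kb in shSKP2 cells and 0 kb in shSCR cells, all of it in 2 shSKP2-only peaks on either side of the start, in intron 1 (chr5:140647259-140647586, fold 4.86) and 382 bp upstream in the IK gene (chr5:140647867-140648247, fold 5.55). NDUFA7 held 2.49 kb in shSKP2 cells and 2.1 kb in shSCR cells. NDUFS1, the gene of the largest core subunit of the arm, held 1.54 and 1.46 kb, and NDUFS4, an accessory subunit gene in which mutations cause Leigh syndrome, held 0.738 and 0.677 kb. NDUFV1 encodes the core subunit that binds NADH and FMN. No H3K27ac peak of either list lay in its domain, the nearest being 17.9 kb from the gene in both lists, and with flanks of 25 kb its difference was 0.663 kb.

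All Q module genes had more cover in shSKP2 cells. NDUFS7, the core subunit gene of the last iron-sulfur cluster before ubiquinone, had 1.48 kb in shSKP2 cells and 0.355 kb in shSCR cells, of which 1 shSKP2-only peak lay near the start of GAMT downstream (chr19:1400898-1401475, fold 6.39). NDUFA9 had 1.79 kb in shSKP2 cells and 1.04 kb in shSCR cells, NDUFA5 had 1.16 and 0.457 kb, and NDUFS8 had 1.74 and 1.07 kb. NDUFS3, another core subunit gene, had 1.93 kb in shSKP2 cells and 1.41 kb in shSCR cells, the smallest difference of the module at 0.519 kb. The Q module thus held no gene with a difference under 0.5 kb.

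In the membrane arm, the largest difference was at NDUFA10. NDUFA10, an accessory subunit gene related to nucleoside kinases, had 2.2 kb in shSKP2 cells and 0.628 kb in shSCR cells. A shSKP2-only peak of 1221 bp (chr2:239926770-239927990, fold 9.42, -log10 p 33.5) accounted for most of it. It lay 97974 bp downstream of the NDUFA10 start, in the gene body outside the canonical transcript, and 95538 bp from the nearest shSCR peak. NDUFA3 had 1.69 kb in shSKP2 cells and 0.458 kb in shSCR cells. A shSKP2-only peak lay in its intron 1 (chr19:54102891-54103419, fold 5.61), and the peak of both lists near TFPT and PRPF31 was 1160 bp wide in shSKP2 cells and 458 bp in shSCR cells. NDUFB6, NDUFB3, NDUFB5 and NDUFC1 also differed by more than 1 kb (1.2, 1.15, 1.09 and 1.01 kb). At NDUFB5 the single promoter peak was 1284 bp wide in shSKP2 cells and 190 bp in shSCR cells. NDUFB10 had 1.71 kb in shSKP2 cells and 0.812 kb in shSCR cells. Differences at NDUFA1, NDUFA8, NDUFA13 (also known as GRIM-19), NDUFB1, NDUFB2, NDUFB7, NDUFB8, NDUFB9, NDUFC2 and NDUFS5, all accessory subunit genes, ran from 0.119 kb at NDUFA8 to 0.592 kb at NDUFB8.

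Beside NDUFV1, the genes with the smallest difference or less cover were NDUFB11, NDUFA11 and NDUFA4. NDUFB11 had 0.693 kb in shSKP2 cells and 0.833 kb in shSCR cells. Both lists held 2 peaks at its start, of 242 and 451 bp in shSKP2 cells and of 542 and 291 bp in shSCR cells, and the folds at both were slightly higher in shSKP2 cells (7.45 and 6.08, against 7.26 and 5.21). The direction at NDUFB11 turned with flanks of 25 kb, to a difference of 0.547 kb. NDUFA11 had 0.969 kb in shSKP2 cells and 0.95 kb in shSCR cells, and NDUFA4 had 0.837 and 0.814 kb. These 2 domains were covered over nearly the same length in both lists, while their promoter folds were higher in shSKP2 cells (10.4 against 6.92 at NDUFA11, and 15.7 against 11.9 at NDUFA4). NDUFB4, which encodes another accessory subunit of the arm, had 0.499 and 0.41 kb. The largest difference of all was at NDUFA4L2, with 3.47 kb in shSKP2 cells and 1.21 kb in shSCR cells. Most of that cover lay at the starts of its neighbours SHMT2 and STAC3, and with flanks of 2 kb the difference was 0.971 kb. NDUFC2-KCTD14 had 2.57 kb in shSKP2 cells and 1.6 kb in shSCR cells, including a peak of both lists near KCTD14 and 1 shSKP2-only peak in intron 2 (chr11:78051073-78051631, fold 4.58).

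Counted as distinct regions, the domains held 79 H3K27ac peaks in shSKP2 cells and 62 in shSCR cells. Of the shSKP2 peaks 24 had no overlapping shSCR peak (30.4%, Wilson 95% interval 21.3 to 41.2%), and of the shSCR peaks 2 had no overlapping shSKP2 peak (3.23%, 0.889 to 11.0%). Over the whole lists these shares were 48.6 and 13.6%. The contrast of 24 shSKP2-only and 2 shSCR-only peaks was 14 and 6 with both lists cut to the same length, 42 and 25 with a reciprocal overlap of 50%, and 15 and 0 when a peak of the other list within 1000 bp counted as an overlap. The 24 shSKP2-only peaks lay in 17 domains (43.6% of the 39), against 44.9% of all gene domains, and 2 domains held a shSCR-only peak, against 12.0% of all. Of the 24, 9 lay at complex I promoters, 6 at promoters of other genes, 7 in gene bodies and 2 in flanks, and 9 lay within 1 kb of a shSCR peak. Both shSCR-only peaks, at PTPMT1 beside NDUFS3 and in intron 3 of NDUFA12, had a shSKP2-only peak 549 and 363 bp away. By place, peaks at complex I promoters summed to 38.9 kb in shSKP2 cells and 24.0 kb in shSCR cells, with median folds of 6.92 and 5.5, and peaks at promoters of other genes to 15.0 and 7.23 kb, with median folds of 6.03 and 5.1. Gene body peaks outside promoters summed to 5.78 kb in shSKP2 cells and 1.82 kb in shSCR cells, and flank peaks to 2.13 and 0.929 kb.

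Promoters were then compared on their own, within 2 kb of the start. An H3K27ac peak was there in both lists at 34 of the 39 genes, against 40.7% of all genes. NDUFA2, NDUFA3 and NDUFV3 had one in shSKP2 cells only, against 10.7% of all genes, no complex I gene had one in shSCR cells only, against 0.805% of all, and NDUFB10 and NDUFV1 had none. The 3 promoters marked in shSKP2 cells only reached folds of 5.55 (NDUFA2), 5.61 (NDUFA3) and 5.82 (NDUFV3), below the median of 7.6 at the 34 promoters of both lists. NDUFB10 is a membrane arm subunit gene, and the peaks in its domain lay downstream, at RPS2, RNF151 and TBL3.

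The fold of the strongest promoter peak, which is the fragment pileup at the summit over the local background, was higher in shSKP2 cells at 31 of the 34 promoters and lower at NDUFA4L2, NDUFB2 and NDUFV2. Among all genes with a promoter peak in both lists it was higher at 78.9%. The strongest peak was picked in each list by itself, so the peaks compared could differ. At NDUFS8 it lay 101 bp downstream of the start in shSKP2 cells and 365 bp upstream in shSCR cells. By site, the NDUFS8 folds in shSKP2 and shSCR cells were 4.93 and 3.79 downstream, but 3.39 and 4.66 upstream. NDUFS1 was also unlike, yet its fold was higher in shSKP2 cells at both sites (6.29 against 4.98, and 5.63 against 5.53). Summits could also lie apart in overlapping peaks. Those of NDUFS3 lay 315 bp downstream of the start (shSKP2) and 220 bp upstream (shSCR). Those of NDUFB1 lay 89 bp (shSKP2) and 502 bp (shSCR) upstream. The median fold was 7.6 in shSKP2 cells and 5.91 in shSCR cells, and the median ratio was 1.25, against 1.19 over all such genes. The highest folds were at NDUFA4 (15.7 in shSKP2 and 11.9 in shSCR cells), NDUFA6 (12.2 and 8.44) and NDUFB4 (12.0 and 9.14). NDUFB4 and NDUFA4 were also the 2 highest of the shSCR list, followed by NDUFB3 at 8.88 (10.3 in shSKP2 cells). The lowest folds were at NDUFA4L2 (3.12 in shSKP2 and 3.52 in shSCR cells), NDUFS8 (4.93 and 4.66) and NDUFS6 (5.15 and 4.12), and NDUFB6 was among the 3 lowest of the shSCR list (7.91 and 4.24). NDUFA4 and NDUFB4 were thus among the 3 highest, and NDUFA4L2 and NDUFS6 among the 3 lowest, in both lists. The NDUFS6 values belong to summits in MRPL36, 1156 bp (shSKP2) and 1765 bp (shSCR) upstream of the NDUFS6 start. At the NDUFS6 start itself the folds were 4.39 in shSKP2 and 3.41 in shSCR cells. NDUFC2 and NDUFC2-KCTD14 share their strongest peak in each list, and both count among the 34.

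**Figure D3:**
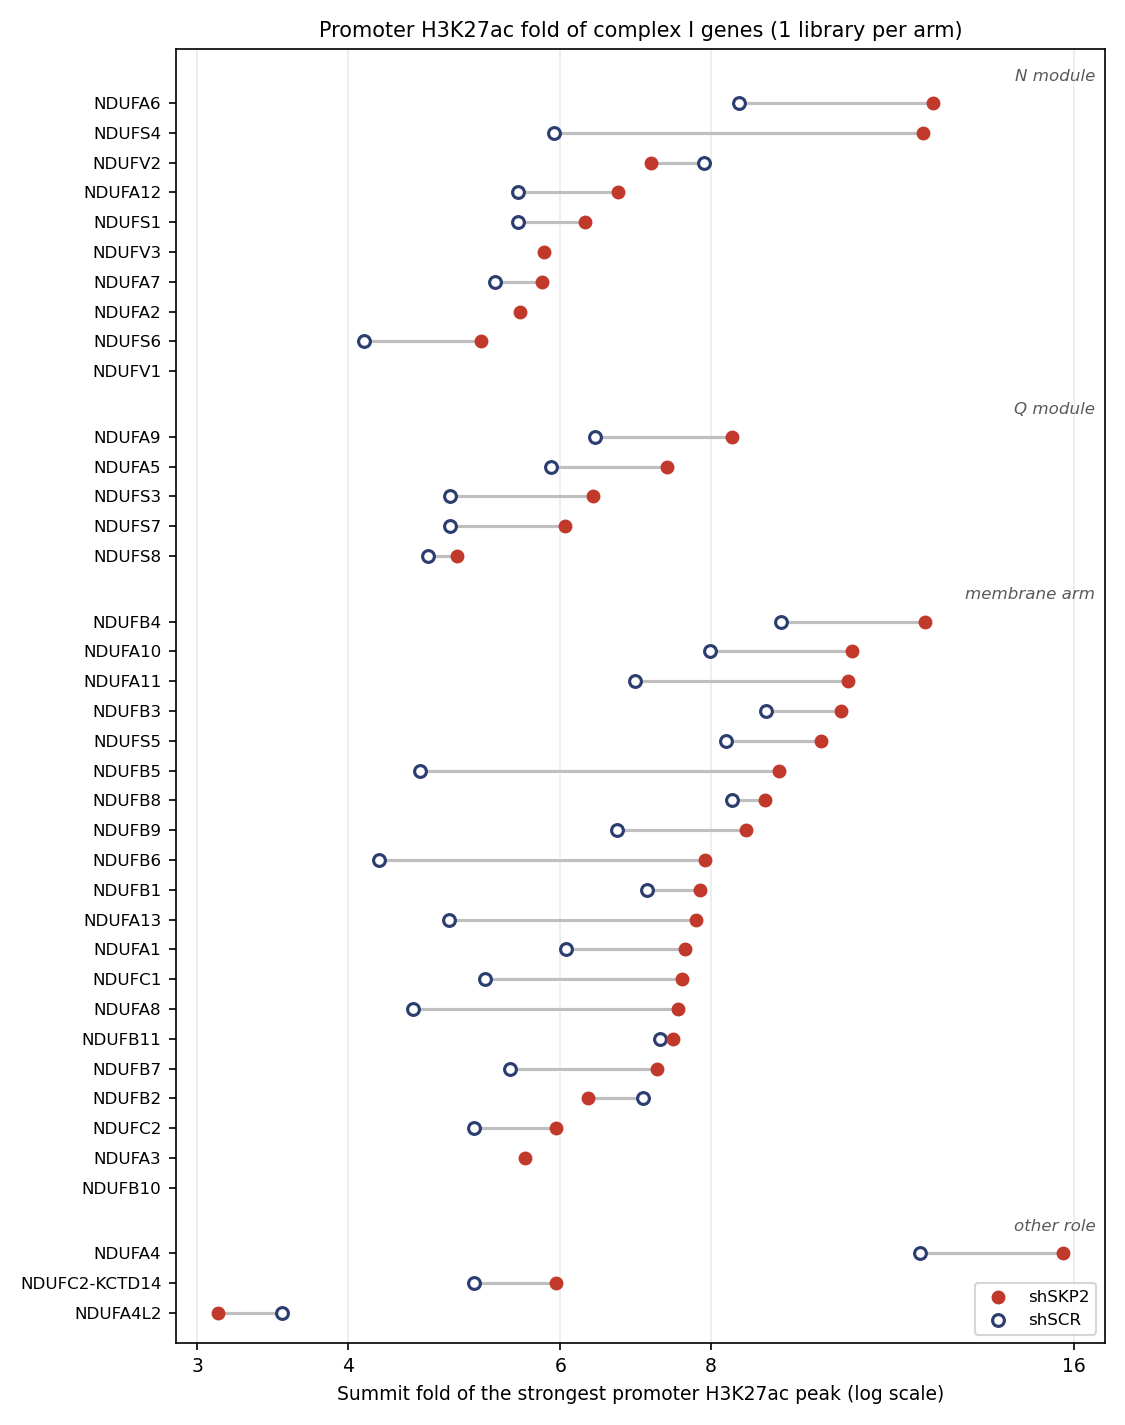
Fold of the strongest H3K27ac peak within 2 kb of the start site of 38 complex I genes, on a log axis, by module. Filled red points are the shSKP2 library and open blue points the shSCR library, 1 library each. NDUFA2, NDUFA3 and NDUFV3 have a red point only, NDUFB10 and NDUFV1 have none, and the red point lies to the left at NDUFA4L2, NDUFB2 and NDUFV2.

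Ratios of the fold were above 1.5 at 5 promoters, a count that was not made over all genes. The 2 largest were at NDUFS4, with 12.0 in shSKP2 cells and 5.93 in shSCR cells, and at NDUFB5, with 9.11 and 4.59. The NDUFS4 peak kept its width (738 bp in shSKP2 and 677 bp in shSCR cells) while the summit pileup was 55 fragments in shSKP2 cells and 17 in shSCR cells, a ratio of 3.24 (exact conditional 95% interval 1.85 to 5.95, counting error only). At NDUFB5 the pileup was 51 and 19 fragments, a ratio with an interval of 1.56 to 4.81. The pileup of the strongest peak in each list was higher in shSKP2 cells at all 34 promoters. The interval of the ratio lay above 1 at 21 of them. Ratios ran from 1.15 to 3.24 with a median of 1.74. The median was 1.55 over all genes with a promoter peak in both lists, where neither count was made. Pileups are raw fragments, not scaled for depth or background, so a ratio of 1 is not a neutral reference. Ratios above 1 thus do not set complex I promoters apart from other promoters. The local background under these peaks had a median ratio, shSKP2 over shSCR, of 1.47, against 1.34 over all such genes. At the upstream NDUFS8 site the pileup was lower in shSKP2 cells (21 against 26 fragments). Promoter cover was larger in shSKP2 cells at 32 of the 34 and smaller at NDUFB11 and NDUFA7, against 90.7% larger among all such genes.

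Around the start site both lists showed the same shape, a dip at the start with cover on both sides and more of it downstream. At 200 bp downstream, 87.2% of complex I genes lay under an H3K27ac peak in shSKP2 cells and 71.8% in shSCR cells. At 500 bp downstream the shares were 71.8% in shSKP2 cells and 30.8% in shSCR cells, and at 500 bp upstream 46.2 and 20.5%. At 1 kb downstream they were 5.13 and 2.56%. The lists thus differed most within 1 kb of the start. Genes with a shSCR promoter peak had 70.4% in shSKP2 and 57.3% in shSCR cells at 200 bp downstream, and 19.8 and 10.3% at 1 kb downstream. Complex I genes thus had the larger shares at 200 bp downstream and the smaller ones at 1 kb downstream. At 500 bp the comparison genes had 56.1% in shSKP2 and 32.8% in shSCR cells downstream, and 53.3 and 35.7% upstream. At that distance the complex I share was the larger downstream in shSKP2 cells and the smaller upstream in both lists. All comparison genes had a shSCR promoter peak, while 34 of the 39 complex I genes did. The sets are thus unlike, and close shares such as 30.8 and 32.8% cannot be ranked. The strongest promoter summit lay 50 to 350 bp downstream of the start at 25 of the 37 genes with a promoter peak in shSKP2 cells. In shSCR cells it did at 20 of 34. These shares were not counted over all genes.

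**Figure D4:**
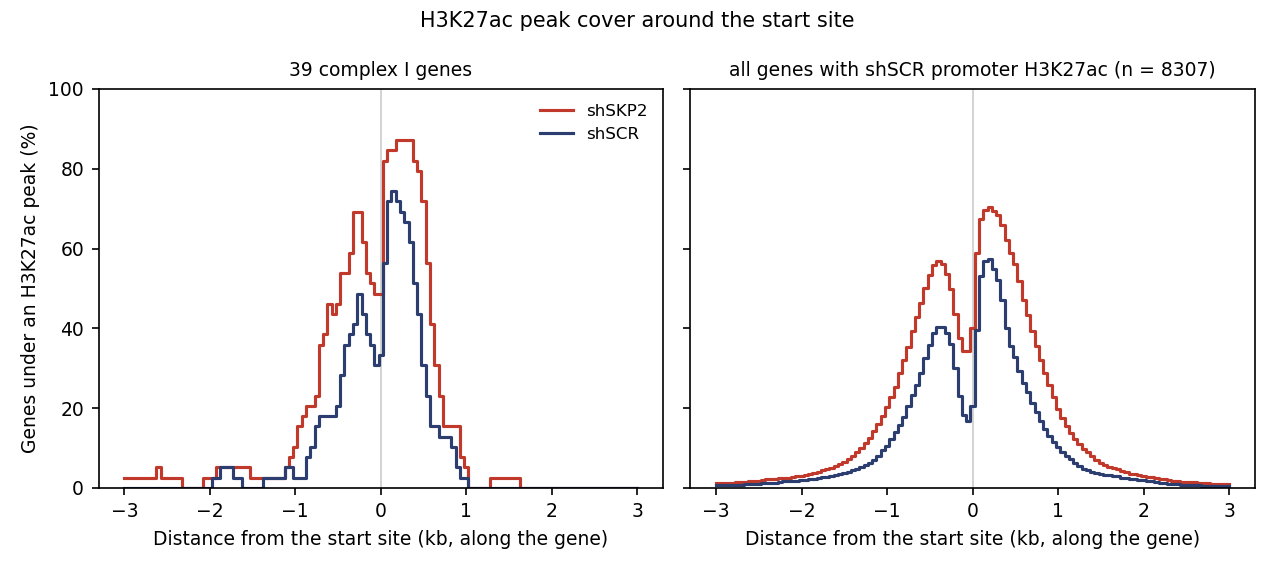
Share of genes (%) under an H3K27ac peak at each distance (kb, along the gene) from the start site, for the 39 complex I genes on the left and the 8307 genes with an H3K27ac promoter peak in shSCR cells on the right. The red line (shSKP2) lies above the blue line (shSCR) at 500 bp on both sides of the start, and at 500 bp downstream of complex I starts it stands at 71.8%, against 30.8% for shSCR.

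MYOD peaks were found at complex I genes in a share near that of all genes. A MYOD peak of either list lay in 12 of the 39 domains (30.8%, Wilson 95% interval 18.6 to 46.4%), against 35.0% of all gene domains. The domains held 10 MYOD peaks in shSKP2 cells and 6 in shSCR cells, of which 6 and 2 had no counterpart in the other list (60.0 and 33.3%, against 55.9 and 35.9% over the whole MYOD lists). A shSKP2-only MYOD peak lay in 6 domains, against 20.1% of all, and a shSCR-only peak in 2, against 8.92% of all. At promoters, 8 of the 39 genes had a MYOD peak of either list, against 12.9% of all genes. All 8 were among the 34 complex I genes with shSCR promoter H3K27ac. Of all 8307 genes with shSCR promoter H3K27ac, 1953 had a MYOD peak at the promoter. An E-box was found 100 bp or less from the summit for 9 of the 10 shSKP2 peaks, all but NDUFC1, and for 6 of the 6 shSCR peaks, against 93.5% of all shSKP2 and 94.9% of all shSCR MYOD peaks.

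Sequence at MYOD summits is shown for the 4 sites of both lists and for 3 sites of a single list, as 101 bases around the summit in hg38, read along the gene, with E-boxes in capitals. The shSKP2 summit is used except at NDUFC1 and NDUFB7. Windows of the same length held no E-box at the shSKP2 summits of NDUFC1 and NDUFB6 and at the shSCR summit of NDUFB1. These are not shown, so the windows below do not give the share of summits with an E-box.
NDUFS6, both lists, chr5:1793379-1793479, plus strand: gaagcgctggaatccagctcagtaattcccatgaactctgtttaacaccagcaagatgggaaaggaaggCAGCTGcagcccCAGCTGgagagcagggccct
NDUFA12, both lists, chr12:94954093-94954193, minus strand: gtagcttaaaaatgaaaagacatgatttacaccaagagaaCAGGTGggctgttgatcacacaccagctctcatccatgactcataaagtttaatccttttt
NDUFA5, both lists, chr7:123558014-123558114, minus strand: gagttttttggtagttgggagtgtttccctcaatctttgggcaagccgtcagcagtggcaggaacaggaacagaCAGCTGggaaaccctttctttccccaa
NDUFC1, both lists, shSCR summit, chr4:139302157-139302257, minus strand: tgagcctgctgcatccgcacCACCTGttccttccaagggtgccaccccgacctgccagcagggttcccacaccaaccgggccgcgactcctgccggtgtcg
NDUFA6, shSKP2 only, chr22:42090941-42091041, minus strand: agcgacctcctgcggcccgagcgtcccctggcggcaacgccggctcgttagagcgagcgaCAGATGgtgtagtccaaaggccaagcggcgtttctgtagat
NDUFA11, shSKP2 only, chr19:5904972-5905072, minus strand: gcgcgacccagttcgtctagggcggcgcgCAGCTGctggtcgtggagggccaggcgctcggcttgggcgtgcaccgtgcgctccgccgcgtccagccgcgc
NDUFB7, shSCR only, chr19:14572113-14572213, minus strand: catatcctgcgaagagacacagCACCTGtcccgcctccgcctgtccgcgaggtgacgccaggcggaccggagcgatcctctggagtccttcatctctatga
NDUFS6 held 2 E-boxes of the letters CAGCTG, NDUFA5 and NDUFA11 held 1 each, and the other 4 windows held E-boxes of other letters.

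The 4 sites of both lists had 11 to 24 fragments in shSKP2 cells and 10 to 28 in shSCR cells. At NDUFA12 the peak lay in the gene body outside the canonical transcript, with a fold of 5.8 and 24 fragments in shSKP2 cells and a fold of 6.79 and 28 fragments in shSCR cells. No H3K27ac peak overlapped it. At NDUFS6 the peak lay 7978 bp upstream of the start, overlapping an H3K27ac peak of each list, with a fold of 5.06 and 16 fragments in shSKP2 cells and a fold of 4.01 and 10 fragments in shSCR cells. NDUFC1, a small accessory subunit gene of the membrane arm, had a peak in intron 1 near the NAA15 start, with a fold of 3.76 in shSKP2 cells and 6.04 in shSCR cells and with 11 and 18 fragments. NDUFA5, an accessory subunit gene of the Q module, had one 246 bp upstream, with a fold of 3.81 in shSKP2 cells and 4.45 in shSCR cells and with 11 and 12 fragments. Fold was thus lower in shSKP2 cells at 3 of the 4 sites, a share that was not counted over all MYOD peaks of both lists. The median fold of the whole MYOD list was 5.35 in shSKP2 cells and 5.71 in shSCR cells. At NDUFC1 the summits compared lay apart, 465 bp (shSKP2) and 270 bp (shSCR) downstream of the start.

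Sites of a single list had 9 to 26 fragments at their summits. In shSKP2 cells only, MYOD peaks lay 396 bp upstream of NDUFA4 (chr7:10940426-10940702, fold 5.59, 26 fragments), 219 bp upstream of NDUFA6 (chr22:42090965-42091152, fold 4.76, 13 fragments), in coding exon 1 of NDUFB6 (chr9:32572818-32573058, fold 4.08, 11 fragments) and 1232 bp upstream of NDUFA11 in the VMAC gene (chr19:5904910-5905110, fold 3.88, 12 fragments). A shSKP2-only peak lay at the CD320 start downstream of NDUFA7 (chr19:8307826-8308204, fold 6.26, 20 fragments), and another at the edge of the NDUFS1 domain (chr2:206104656-206104896, fold 3.58, 11 fragments). In shSCR cells only, peaks lay 97 bp upstream of NDUFB7 (chr19:14571872-14572199, fold 4.24, 15 fragments) and 477 bp upstream of NDUFB1, in the CPSF2 gene (chr14:92122004-92122193, fold 3.69, 9 fragments). The shSCR peak at NDUFB1 had a -log10 p of 4.9, under the stated threshold of 5. With both MYOD lists cut to the same length, the domains held 4 shSKP2 peaks, fewer than the 6 of the shSCR list.

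**Figure D5:**
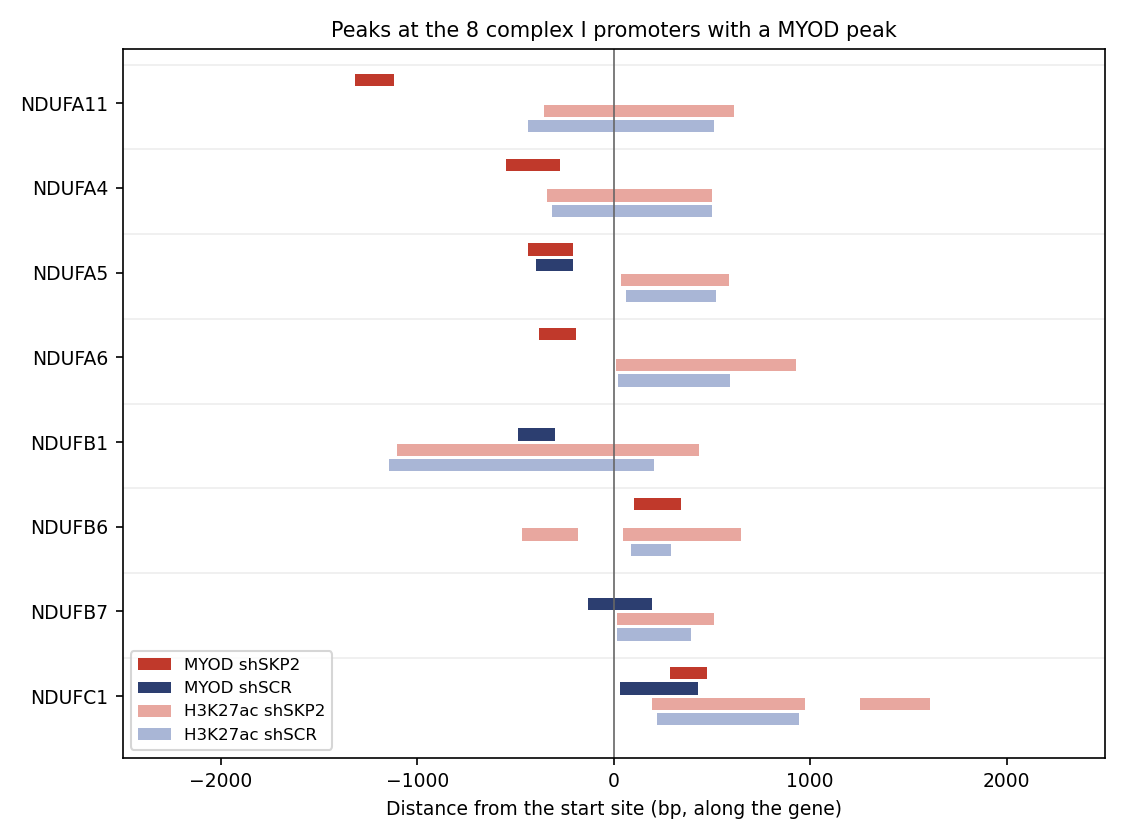
MYOD and H3K27ac peaks at the 8 complex I promoters with a MYOD peak of either list, as distance (bp, along the gene) from the start site. In each row the bars from top to bottom are MYOD in shSKP2 (red), MYOD in shSCR (dark blue), H3K27ac in shSKP2 (light red) and H3K27ac in shSCR (light blue). MYOD bars of both lists stand only at NDUFA5 and NDUFC1, while all 8 promoters have H3K27ac bars of both lists.

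MYOD peaks were then set beside the H3K27ac differences. Among the 6 genes with the largest cover difference, NDUFS6 alone held a MYOD peak, and of the 4 genes with the smallest difference or a loss, NDUFA11 and NDUFA4 held one, both in shSKP2 cells only. The 16 MYOD peaks of the domains stood at 12 distinct sites, because a site of both lists counts in each list. Of the 16 peaks, 9 overlapped an H3K27ac peak, among them the peaks of both lists at NDUFC1 and NDUFS6. The share over all MYOD peaks was not counted. A relation between the marks was not tested.

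Other mitochondrial gene lists also had more cover in shSKP2 cells at most of their genes. More H3K27ac cover in shSKP2 cells was seen at 18 of 19 complex I assembly factor genes (median difference 0.769 kb), 4 of 4 complex II genes (0.893 kb), 9 of 9 complex III genes (0.511 kb), 12 of 14 complex IV genes (0.541 kb), 17 of 17 ATP synthase genes (0.671 kb), 21 of 22 genes of the large mitochondrial ribosomal subunit (0.594 kb) and 13 of 15 regulators of mitochondrial biogenesis (0.838 kb). The largest differences were 1.74 kb at NDUFAF6, 1.26 kb at SDHD, 1.96 kb at UQCR11, 1.42 kb at COX7A2, 2.29 kb at ATP5ME, 3.66 kb at MRPL24 and 5.56 kb at NFE2L2, a regulator of the oxidative stress response. Less cover in shSKP2 cells was seen at FOXRED1, with a difference of -0.227 kb, and at MRPL23, with a difference of -0.372 kb. Promoter H3K27ac was in both lists at 34 of 39 complex I genes, 18 of 19 assembly factor genes and 15 of 17 ATP synthase genes. It was in both lists at 5 of 14 complex IV genes, in shSKP2 cells only at 5 and in neither list at 4. The complex IV list includes tissue-restricted isoform genes such as COX4I2, which had no cover difference. Their part in these counts was not tested. No difference between these lists and complex I genes was tested.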

How the data were processed

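ChIP-seq of MYOD and H3K27ac was measured in RD cells expressing shSKP2 or shSCR, 1 library per group. Per the labels, chromatin was fixed with formaldehyde and digested with micrococcal nuclease. The submitters' processing notes name BWA 0.7.17, MACS3 and deepTools and the builds hg38 and dm3. The authors called peaks per library with MACS3 against an input library with duplicate reads kept, and removed ENCODE excluded regions. A Drosophila spike-in is part of the methods, and whether it entered the peak calls is not given in the sources used here. The deposited peak lists give a score, the fold enrichment at the summit as a ratio over local background, and -log10 p and q values as written by the authors' caller. The stated threshold corresponds to a -log10 p of 5, yet each list starts just above 4, and 2.41 to 4.13% of its peaks lie under 5.

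Peaks were intersected with GENCODE release 44 (hg38) genes. Fragment pileups were recovered from fold and -log10 p by taking fold as (pileup + 1) over (background + 1), and 100% came out whole within 0.001. In each H3K27ac list 1 peak on another contig was left out. A promoter was 2 kb on each side of the canonical start. Promoter motifs were counted in windows of 300 bases. Pileup ratios have exact conditional and shares Wilson 95% intervals, which cover counting error only. The depth of the libraries in reads is unknown.

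One gene is not reported here by name and is not drawn, but is part of all counts. Members and lists were chosen with earlier results of these data known. Genes named in full were the 6 with the largest and the 4 with the smallest cover difference, all with a MYOD peak, all with a promoter H3K27ac peak in 1 list or none, and the 3 highest and 3 lowest promoter folds of each list. Of each comparison list at most the genes with the largest and the smallest difference were named. Alternatives were other peak thresholds, lists of equal length, flanks, promoter widths and overlap rules. Python 3.11.15, numpy 2.4.6, pandas 2.3.3, scipy 1.17.1, pysam 0.24.0, samtools 1.23.1 and matplotlib 3.10.9 were used, and the recovery was tested on simulated data.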

Additional observations from a re-analysis of the deposited data

How the results depend on the processing

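Of 122 alternatives to the counts and medians over complex I genes, 99 stayed close to the reported value and 23 moved. Peaks of a single list depended most on the definition. H3K27ac peaks in shSKP2 only numbered 24, and 14 with lists of equal length, 44 with flanks of 25 kb, 42 with a reciprocal overlap of 50% and 15 when a peak within 1000 bp counted as kept. H3K27ac peaks in shSCR only numbered 2, and 6, 25 and 0 with equal length, reciprocal overlap and the 1000 bp rule. MYOD peaks numbered 10 in shSKP2 cells, and 3 at a -log10 p of at least 10, 4 with equal length and 17 with flanks of 25 kb, against 6 in shSCR cells, and 2 at a -log10 p of at least 10 and 11 with flanks of 25 kb. MYOD peaks in shSKP2 only numbered 6, and 2 at a -log10 p of at least 10 and 2 with equal length. MYOD peaks in shSCR only numbered 2, and 1 at a -log10 p of at least 5, 1 at 10, 4 with equal length and 4 with reciprocal overlap. The median cover difference was 0.392 kb with lists of equal length instead of 0.591 kb. Genes with less cover in shSKP2 cells numbered 2 with equal length and 0 with flanks of 25 kb, where the NDUFB11 difference was 0.547 kb instead of -0.14 kb. Promoters with H3K27ac in shSKP2 only numbered 6 at a -log10 p of at least 10, and 1 was in shSCR only with equal length. The cause of these moves was not tested. With 1 library per group no replicate error is known and no paired analysis was possible.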
